A study of Mus musculus with 6 samples.

Results

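The stefin A cluster of the mouse is a group of small, similar genes that lie side by side on chromosome 16, and 9 of its genes were followed here in tumor endothelial cells (TECs): Stfa2l1, Gm5483, Gm5416, 2010005H15Rik, Stfa1, BC117090, BC100530, Stfa2 and Stfa3. They were found by their names in a table of 56826 models, of which 23473 were RefSeq genes and 33353 were FANTOM3 cDNA models. The 9 genes had been picked because several of them stood higher with Notch activation in these same libraries, so their difference between the groups is given below as a description from which nothing is inferred. RNA was sequenced from Lewis lung carcinoma (LLC) tumors, a transplanted mouse lung tumor line, grown in C57BL/6 mice labelled 8 weeks old. Control mice (Ctrl, n = 3) were labelled wild type. NICeCA mice (n = 3) carried Cdh5-CreERT2, a tamoxifen-inducible Cre under an endothelial promoter, and a Rosa26 allele from which Cre releases the active intracellular domain of Notch1. TECs were pulled from digested tumors with beads against CD31, a surface protein that platelets, neutrophils and macrophages also carry. The libraries came from 3 mice of each group, which the methods call pairs without saying which libraries form a pair. The methods give a single day after inoculation for the sequenced tumors. The labels speak of different days without tying them to libraries.

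Stefins are small proteins of the cystatin family that work inside cells. They hold cysteine cathepsins, the proteases of the lysosome, in tight, reversible complexes, and they are thought to protect the cytosol from protease that leaks out. Mice have several stefin A genes where humans have 1, CSTA, and in the mouse these genes are best known from neutrophils, from other myeloid cells and from epidermis.

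The 9 genes spanned 298.582 kb of chromosome 16, from base 36156811 to 36455392 of GRCm38, with 5 genes on the plus strand and 4 on the minus strand, and none overlapped another. In order along the chromosome, Stfa2l1 (36156811 to 36161948), Gm5483 (36184212 to 36188110, now named Cstdc4), Gm5416 (36210403 to 36217788, now Csta3), 2010005H15Rik (36221562 to 36257427, now Csta2) and Stfa1 (36277148 to 36285371) were on the plus strand. BC117090 (36321665 to 36334332, now Cstdc6), BC100530 (36359382 to 36367570, now Cstdc5), Stfa2 (36403946 to 36408363) and Stfa3 (36450537 to 36455392) followed on the minus strand. The models were short, between 294 and 528 bases, so that 1 read counted for much in RPKM, the unit of the table. RPKM is reads per kilobase of model, scaled to the reads of the library summed over RefSeq and FANTOM3 models together.

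How far such copies can be told apart by their reads depends on their sequences. Over the 36 pairs of genes, the identity of the coding sequences, as matching bases over the shorter of the 2 sequences, ran from 77.89% to 97.96% with a median of 82.22%. The closest pairs were Stfa1 with BC100530 (97.96%), Gm5483 with 2010005H15Rik (96.94%), Stfa2l1 with Stfa2 (96.47%) and BC117090 with BC100530 (96.22%). The first 60 coding bases, from the GENCODE M21 transcripts on GRCm38 that are paired with each gene's RefSeq mRNA, are shown for the 3 closest pairs because they hold the most highly expressed genes and the copies that could trade reads with them. Capitals mark the bases that differ from the partner named first in each pair.
Stfa2l1: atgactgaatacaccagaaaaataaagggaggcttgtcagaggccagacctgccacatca
Stfa2: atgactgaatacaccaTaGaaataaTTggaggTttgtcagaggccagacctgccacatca
Gm5483: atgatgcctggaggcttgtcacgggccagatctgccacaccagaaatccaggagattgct
2010005H15Rik: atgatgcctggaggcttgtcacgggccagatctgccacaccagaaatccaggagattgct
BC100530: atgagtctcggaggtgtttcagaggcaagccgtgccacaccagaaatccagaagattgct
Stfa1: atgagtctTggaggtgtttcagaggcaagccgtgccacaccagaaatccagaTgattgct
Gm5483 and 2010005H15Rik did not differ in these bases and differed at 9 positions of the whole coding sequence, against 11 for Stfa2l1 and Stfa2 and 6 for BC100530 and Stfa1. The protein of Stfa2l1, Stfa2 and Stfa3 is read from a coding sequence of 312 bases, and that of Gm5483, 2010005H15Rik, Gm5416, Stfa1 and BC100530 from 294 bases.

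**Figure D1:**
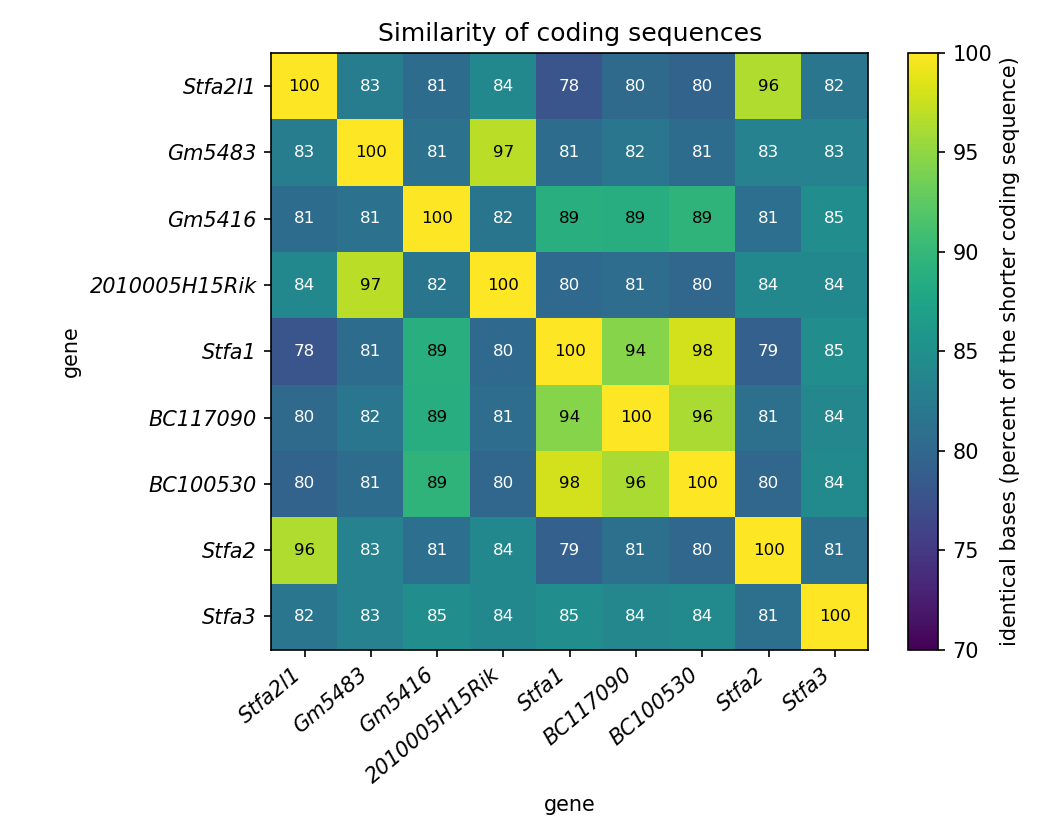
Identity of the coding sequences of the 9 stefin genes in percent of the shorter sequence, with genes on both axes in chromosome order; each cell is 1 pair and the diagonal is a gene with itself. The bright cells off the diagonal are Stfa2l1 with Stfa2, Gm5483 with 2010005H15Rik, and the group of Stfa1, BC117090 and BC100530, while the other pairs stay below 90%.

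No stretch of 150 bases, the length of a sequenced read, in any of the 9 transcripts was identical to a stretch of another gene's transcript. With up to 2 mismatches allowed, 39.25% of the windows of Gm5483 matched 2010005H15Rik, and 21.22% of those of 2010005H15Rik, whose transcript is longer, matched Gm5483. Among the trio of Stfa1, BC117090 and BC100530 the shares were 20.73%, 40.34% and 25.53%. They were 2.593% for Stfa2l1 and 2.174% for Stfa2. Gm5416 and Stfa3 had no such window. Some of these transcripts are longer than the models that gave the RPKM values. Stfa1 had 617 bases against 418 in its model, BC100530 had 619 against 441, and 2010005H15Rik had 639 against 528. Shares over the counted models could therefore differ and were not computed. The counting of reads that fit several genes is not described in the study's methods or labels. The division of reads between Gm5483 and 2010005H15Rik, and among Stfa1, BC117090 and BC100530, is uncertain, and their part in the values below was not tested. The use of strand in the counting is not described either.

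The libraries held 27793301 to 30769916 reads on RefSeq genes, worked back from the RPKM values, which gave whole reads for 100% of the values within 0.05 of a read. Notch1 itself was at 8.19 to 14.3 RPKM in Ctrl and 12.3 to 13.6 RPKM in NICeCA TECs (limma, adjusted p = 0.71), and a value per gene does not separate the transgene from the native gene. Among Notch target genes, Hey1, a repressor, rose by a log2 difference of 1.10 (SE 0.27, adjusted p = 0.041), and Nrarp, a feedback inhibitor, was at 6.34 to 16.5 RPKM in Ctrl and 19.3 to 21.1 RPKM in NICeCA TECs (log2 difference 1.05, SE 0.29, adjusted p = 0.052). Hes1, a further Notch target, was at 13.1, 7.70 and 8.87 RPKM in Ctrl and 8.33, 7.85 and 9.46 RPKM in NICeCA TECs (log2 difference -0.16, SE 0.19, adjusted p = 0.56). The endothelial genes Pecam1 (47.5 to 154 RPKM), which encodes CD31, and Cdh5 (30.9 to 96.5 RPKM), the adhesion protein of endothelial junctions, were present in every library, with Ctrl replicate 2 the lowest for both. A list of 12 macrophage genes summed to 1901 to 4050 RPKM, above the 264 to 744 RPKM of 15 endothelial genes, so the libraries were not of endothelial RNA alone. In such bulk samples fewer cells of a type and less RNA per cell cannot be told apart. The p-values measure the spread between the 3 libraries of each group.

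Gm5483 was the highest of the 9 genes in every library. It was at 2.42, 3.95 and 10.0 RPKM in Ctrl replicates 1, 2 and 3 and at 28.5, 93.5 and 108 RPKM in NICeCA replicates 1, 2 and 3. All NICeCA libraries lay above all Ctrl libraries, NICeCA replicate 1 being 2.85 times Ctrl replicate 3. The means were 5.46 ± 4.01 and 76.8 ± 42.5 RPKM (SD, n = 3 each), a ratio of 14.1, and on the log2(RPKM + 1) scale the difference was 3.56 (SE 0.56, from limma as elsewhere in the text). Gm5483, like 2010005H15Rik and Stfa2l1, encodes a member of the stefin A family that has been little studied as a protein.

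Stfa2l1 was the second gene in all 6 libraries. Its levels were 1.61, 3.40 and 6.56 RPKM in Ctrl and 14.2, 37.3 and 65.0 RPKM in NICeCA replicates 1, 2 and 3. The groups did not overlap, and the gap between them, 2.16-fold from Ctrl replicate 3 to NICeCA replicate 1, was the narrowest of the 3 highest genes. Means of 3.86 ± 2.51 and 38.8 ± 25.4 RPKM gave a ratio of 10.1 and a log2(RPKM + 1) difference of 2.93 (SE 0.55).

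2010005H15Rik was the third gene in all 6 libraries. It was at 0.776, 0.951 and 2.43 RPKM in Ctrl and at 12.7, 33.9 and 37.6 RPKM in NICeCA replicates 1, 2 and 3. The groups did not overlap, with 5.24-fold between Ctrl replicate 3 and NICeCA replicate 1. The means of 1.39 ± 0.907 and 28.1 ± 13.4 RPKM gave a ratio of 20.3 and a log2(RPKM + 1) difference of 3.53 (SE 0.41), beside that of Gm5483, its near copy.

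The order Gm5483, Stfa2l1, 2010005H15Rik thus held within each library, but across libraries the ranges of neighbours in the order overlapped in both groups. The spread within a group was wide, with a coefficient of variation of 65.1% to 73.4% for these 3 genes in Ctrl and 47.8% to 65.6% in NICeCA TECs.

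The other 6 genes were low and rested on few reads. Stfa1 had 1, 0 and 3 reads in Ctrl and 23, 42 and 88 reads in NICeCA replicates 1, 2 and 3, or at most 0.184 and 5.65 RPKM. Pooled over the libraries of a group the ratio was 41.3, with an exact 95% counting interval of 15.8 to 154. The width of this interval comes from the 4 Ctrl reads, and like all counting intervals here it covers counting error only and not the spread between mice.

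BC100530, the closest copy of Stfa1, had 2, 1 and 5 reads in Ctrl and 10, 30 and 46 reads in NICeCA TECs (pooled ratio 11.6, counting interval 5.64 to 27.8). Stfa2 had 1, 4 and 1 reads in Ctrl and 6, 19 and 56 reads in NICeCA TECs (pooled ratio 14.6, counting interval 6.42 to 40.9). Gm5416 had 0, 1 and 3 reads against 5, 9 and 10 reads (pooled ratio 6.49, counting interval 2.23 to 25.7). For each of these 3 genes the lowest NICeCA library stood above the highest Ctrl library in RPKM, by the smallest step for Stfa2, from 0.237 to 0.389 RPKM.

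Stfa3 had no read in any Ctrl library and 9, 12 and 28 reads in NICeCA replicates 1, 2 and 3. Against a floor of 3 reads over the Ctrl group (0.0618 RPKM), its pooled NICeCA level of 1.09 RPKM was 17.7-fold higher. That ratio leaves out the counting error of the 49 NICeCA reads. BC117090 had 1 read in all, in NICeCA replicate 3, and gives no fold. A count of 0 in the other libraries says that it was not detectable at this depth.

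**Figure D2:**
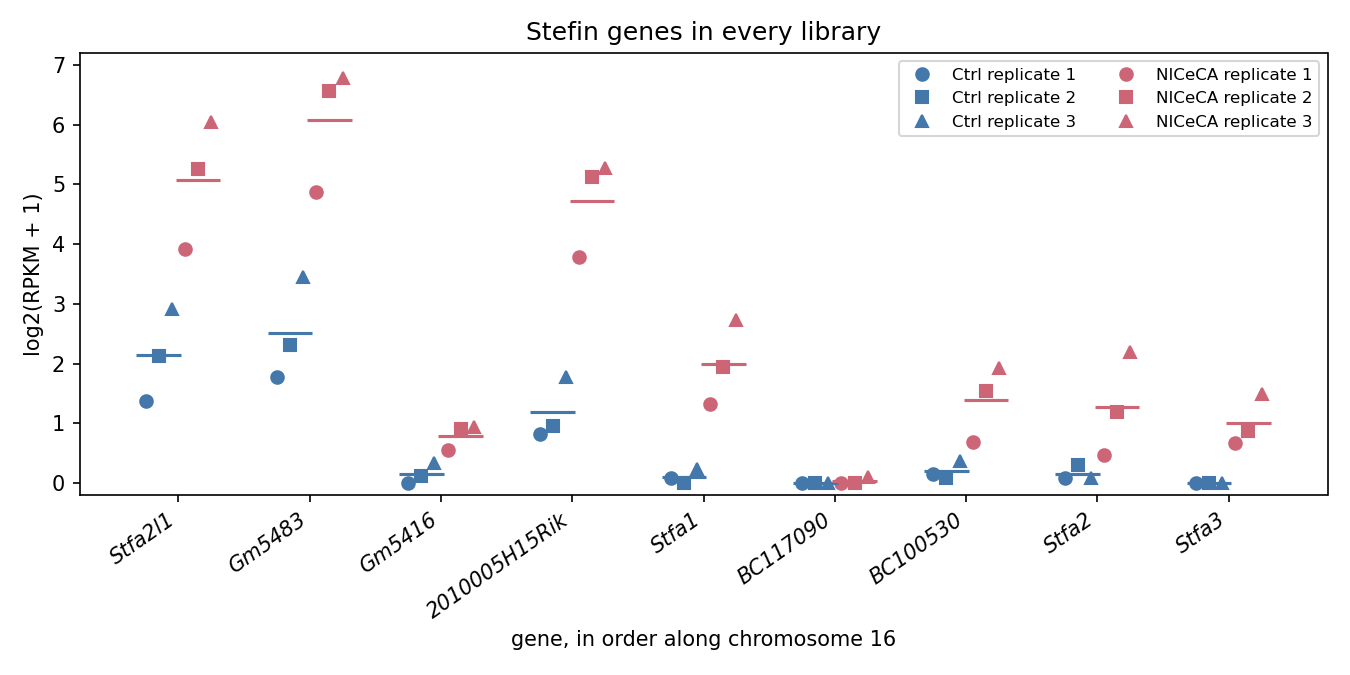
Level of each stefin gene as log2(RPKM + 1) (vertical axis) in 3 Ctrl (blue) and 3 NICeCA (red) libraries, with genes in chromosome order (horizontal axis), points for single libraries with the marker shape giving the replicate number, and lines for group means. For 8 of 9 genes the NICeCA points all lie above the Ctrl points, and NICeCA replicate 3 is the highest point of every gene.

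Thus 8 of the 9 genes were higher in all 3 NICeCA libraries than in all 3 Ctrl libraries, BC117090 being the exception. Among all 12320 RefSeq genes with a mean of at least 1 RPKM, 16.5% were higher without overlap and 24.4% lower, 40.9% in all. Only 4 of the 9 genes reached that mean (Gm5483, Stfa2l1, 2010005H15Rik and Stfa1), and they reached it through the NICeCA libraries. All 4 were called higher by limma at an adjusted p under 0.05, which the choice of the genes and the filter had largely fixed, and a call that 5.88% of tested genes received, while 7.68% were called lower and 13.6% in either direction. Since the genes were picked from this same contrast, nothing is read from these counts. By size of the log2 difference the 4 genes held places 5, 6, 14 and 61 of the tested genes, whose median difference was -0.05. Without NICeCA replicate 2, 0 of them passed, but their log2 differences were then 3.31 for Gm5483, 2.84 for Stfa2l1, 3.33 for 2010005H15Rik and 1.92 for Stfa1. In the same setting the calls over all tested genes dropped from 725 higher and 946 lower to 17 and 1.

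Summed over the 9 genes, the cluster stood at 5.04, 8.68 and 19.8 RPKM in Ctrl and at 58.9, 172 and 226 RPKM in NICeCA replicates 1, 2 and 3 (means 11.2 ± 7.68 and 152 ± 85.2, SD, n = 3 each). In reads this was 85, 147 and 329 against 941, 2651 and 3637. The libraries of a group also stood in a similar order for most of the genes. NICeCA replicate 3 was highest for 9 of 9 genes and NICeCA replicate 1 was lowest or tied for lowest for 9 of 9. In Ctrl, replicate 3 was highest for 6 of the 7 genes that had reads there, the exception being Stfa2, which was highest in Ctrl replicate 2.

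Gm5483, Stfa2l1 and 2010005H15Rik together held 93.7% to 96.4% of the reads on the cluster in each library. Gm5483 alone held 44.2% to 48.9% in Ctrl and 45.6% to 51.4% in NICeCA TECs, ranges that overlap. The shares of the other 2 genes did not overlap between the groups. Stfa2l1 held 30.6%, 38.1% and 32.2% in Ctrl and 22.7%, 20.6% and 27.6% in NICeCA replicates 1, 2 and 3. 2010005H15Rik held 18.8%, 13.6% and 15.2% in Ctrl and 26.0%, 23.8% and 20.3% in NICeCA replicates 1, 2 and 3. The ratio of Gm5483 to 2010005H15Rik in RPKM, which restates these shares, was 3.12 to 4.15 in Ctrl and 2.24 to 2.88 in NICeCA TECs. That of Gm5483 to Stfa2l1 went the other way, from 1.16 to 1.52 in Ctrl to 1.67 to 2.51 in NICeCA TECs. Stfa1 (0% to 1.18% against 1.58% to 2.44%) and Stfa3 (0% against 0.453% to 0.956%), on few reads, also had shares without overlap. How often such shares fall without overlap over all genes was not computed. These shares come from the contrast that picked the genes and rest in Ctrl on 85 to 329 reads, and the part of reads traded between the near copies was not tested.

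**Figure D3:**
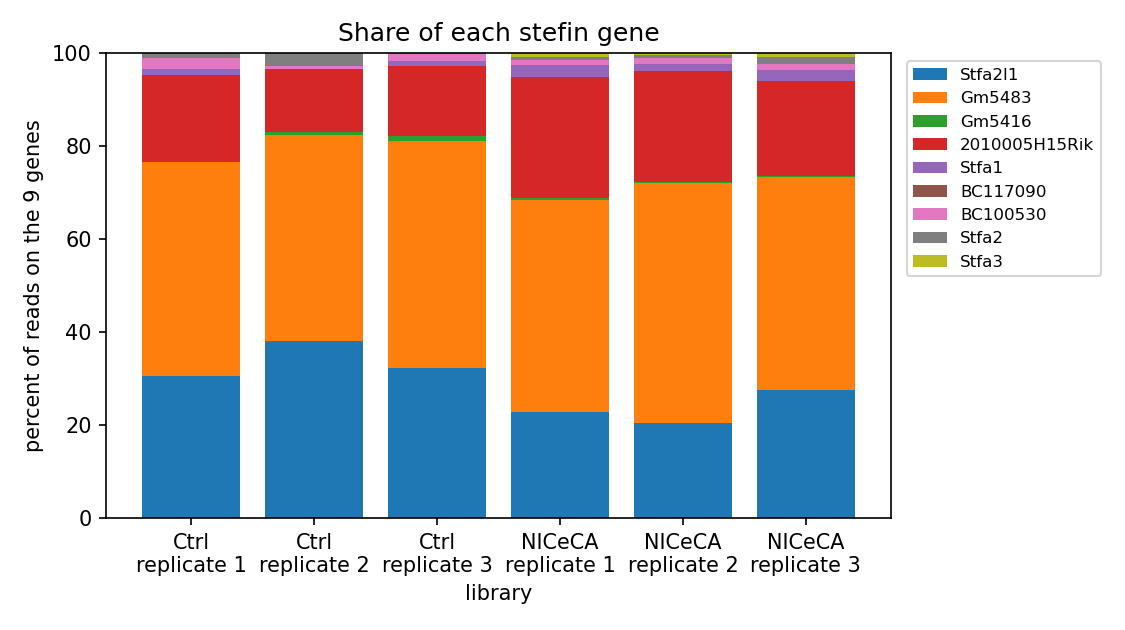
Share of each stefin gene in the reads on the 9 genes (vertical axis, percent) in each of the 6 libraries (horizontal axis), with 1 colour per gene. Gm5483 takes 44.2% to 51.4% in every library, while Stfa2l1 takes less and 2010005H15Rik more in the NICeCA libraries than in the Ctrl libraries.

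The sequences before the start sites show what the genes have in common there. Promoters from RefSeq on GRCm38.p6, each from 250 bases before to 50 bases after the start, were found for 8 of the 9 genes. The 80 bases before the start are shown for 7 of them on their own strand, 5′ to 3′, with the letters TTTAAA in capitals. Gm5416 is left out because its model begins at the start codon.
Stfa2l1 (chr16:36156731-36156810, plus): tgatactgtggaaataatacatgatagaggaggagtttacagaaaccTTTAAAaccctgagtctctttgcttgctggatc
Gm5483 (chr16:36184132-36184211, plus): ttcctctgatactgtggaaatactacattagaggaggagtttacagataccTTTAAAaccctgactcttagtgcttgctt
2010005H15Rik (chr16:36221482-36221561, plus): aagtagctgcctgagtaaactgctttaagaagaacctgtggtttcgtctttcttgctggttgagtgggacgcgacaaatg
Stfa1 (chr16:36277068-36277147, plus): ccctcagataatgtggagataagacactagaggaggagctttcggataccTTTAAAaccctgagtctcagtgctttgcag
BC100530 (chr16:36367571-36367650, minus): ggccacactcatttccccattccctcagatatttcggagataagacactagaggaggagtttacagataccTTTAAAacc
Stfa2 (chr16:36408364-36408443, minus): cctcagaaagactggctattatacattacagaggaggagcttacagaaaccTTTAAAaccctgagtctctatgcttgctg
Stfa3 (chr16:36455393-36455472, minus): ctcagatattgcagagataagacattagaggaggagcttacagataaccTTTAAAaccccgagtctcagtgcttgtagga
TTTAAA was in 7 of 8 promoters, on either strand, against 13.2% of 27025 promoters with 1 per gene. The longest run of letters in at least 7 of the 8 was ACCTTTAAAACCC, which contains TTTAAA and began 12 to 36 bases before the start in 6 genes and 80 bases before it in Gm5416. Of 32851 promoters in the whole table, 9 held this run, and all of them were of genes in the cluster: 7 of those described here, Cstdc3 and Gm7260.

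2010005H15Rik was the exception and held neither run of letters, although it was the third gene by level in every library. Its 100 bases before the start matched those of Gm5483 at 45% of positions, against 84% for Stfa2l1 and Gm5483, while its coding sequence was the nearest to Gm5483. TTTAAA and the longest run were searched after the sequences had been read.

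Other motifs were searched on both strands. TATAAA (the TATA box) was in 0 of 8 promoters (14.2% of all) and TGGGAA (a core bound by RBPJ, the DNA-binding partner of the Notch1 intracellular domain) was in 0 of 8 (25.5% of all). For C/EBP factors, which act in myeloid cells, the letters TTNNGNAA were found in 6 of 8 promoters against 40.7% of all. GAGGAA, bound by ETS factors such as PU.1, was found in 6 of 8 promoters against 28.3%. AGATAA, bound by GATA factors, was found in 4 of 8 promoters against 11.4%. For AP-1 the letters TGANTCA were found in 1 of 8 promoters against 7.93%. Several of the 8 promoters are alike, Stfa1 and Stfa3 at 86% of the 100 bases before the start. Their matches, those of TTTAAA included, are therefore not independent of each other. Gm5416 is counted among the 8 although its model begins at the start codon. A match describes the letters of the window, and no binding was measured.

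The genes around the cluster were compared to see how far the difference reached along the chromosome. Of 21 other RefSeq genes within 500 kb, 15 were tested, and their log2 differences lay between -0.75 and 0.92, with a median of 0.21 (all tested genes -0.05). Fam162a, which encodes a mitochondrial protein, rose from 16.1, 20.5 and 27.0 RPKM in Ctrl to 40.3, 36.2 and 44.4 RPKM in NICeCA TECs (log2 difference 0.92, SE 0.19, limma adjusted p = 0.030), higher in 3 of 3 libraries. Golgb1, which encodes the Golgi tether giantin, fell from 14.0, 16.5 and 11.8 to 6.99, 7.52 and 9.41 RPKM (log2 difference -0.75, SE 0.16, adjusted p = 0.033). The other 13 did not pass, among them Hcls1 (59.0 to 101 RPKM), Parp14 (15.6 to 32.2 RPKM), Cd86 (6.96 to 21.1 RPKM) and Parp9 (10.7 to 18.7 RPKM). Both calls were lost without Ctrl replicate 2, without NICeCA replicate 1 or without NICeCA replicate 2. That of Golgb1 was also lost without Ctrl replicate 1, and that of Fam162a without NICeCA replicate 3, while 3 neighbours were called higher without Ctrl replicate 3.

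Inside the span, Gm6815 was at 0 to 0.276 RPKM. It had 0, 4 and 4 reads in Ctrl and 4, 18 and 35 reads in NICeCA replicates 1, 2 and 3. The lowest NICeCA library (0.0322 RPKM) stood just above the highest Ctrl library (0.0301 RPKM), on 4 reads each. NICeCA replicate 3 was the highest library, as it was for the stefin genes. With a mean of 0.0862 RPKM, Gm6815 was too low to be tested. Csta, a further stefin-like gene on the Stfa2l1 side of the cluster, was at 0.0100 to 0.0469 RPKM.

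**Figure D4:**
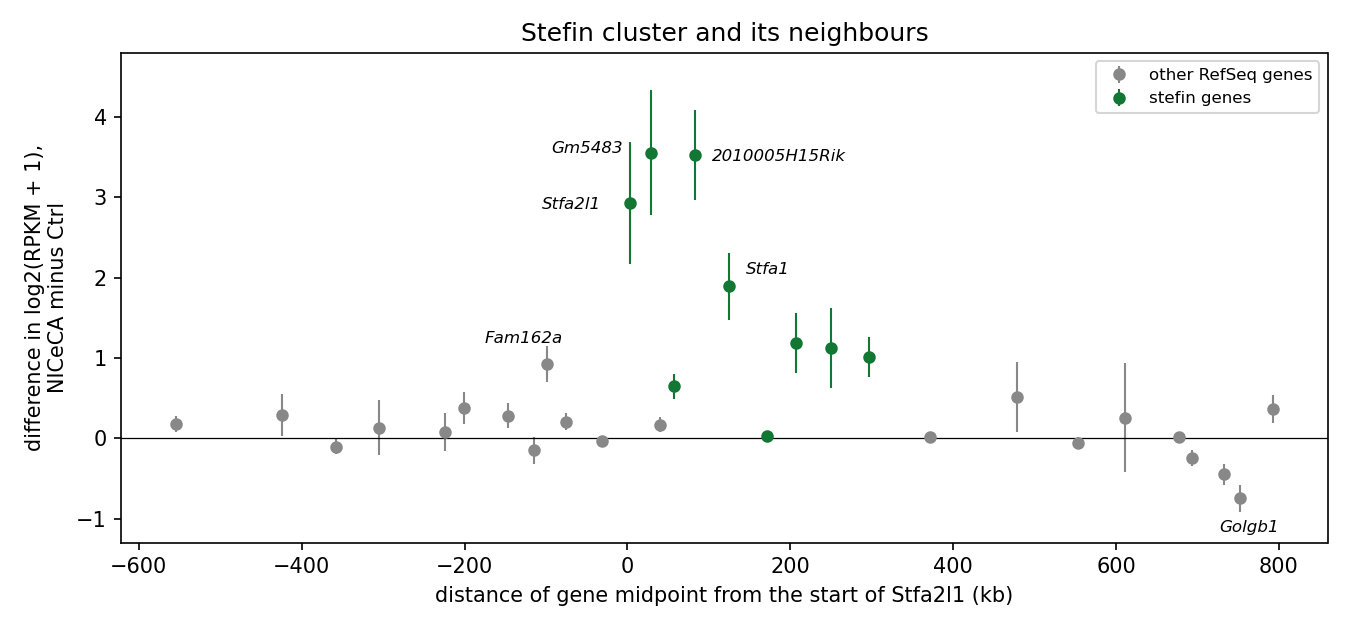
Difference in log2(RPKM + 1), NICeCA minus Ctrl (vertical axis), against the distance of each RefSeq gene's midpoint from the start of Stfa2l1 in kb (horizontal axis), with stefin genes in green, other genes in grey, and bars for the SE from that gene's own 3 and 3 libraries, which is wider than the limma SE for the 4 tested stefin genes. The differences of 3.56 (Gm5483), 3.53 (2010005H15Rik) and 2.93 (Stfa2l1) stand above the range of the tested neighbours, -0.75 to 0.92. Those of Gm5416 (0.645) and BC117090 (0.0323), genes with few reads, lie inside it. The stefin genes were picked from this same contrast, so nothing is inferred from their place above the neighbours.

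Stefins act on cathepsins of the papain family. A list of 11 proteases was tested, 10 of them such cathepsins and the last legumain (Lgmn), a lysosomal cysteine protease of another family that stefins are not known to inhibit. Of the 11, 3 cathepsins rose, 0 fell and 8 genes did not pass, with a median log2 difference of 0.35 against -0.05 over all tested genes. Of all tested genes 5.88% were called higher and 7.68% lower. Ctsl, cathepsin L, rose from 200, 167 and 219 RPKM in Ctrl to 585, 550 and 522 RPKM in NICeCA TECs (log2 difference 1.50, SE 0.15, limma adjusted p = 0.0083). Ctsk, cathepsin K, known for matrix breakdown by osteoclasts, rose from 10.1, 3.17 and 13.7 to 103, 47.7 and 82.7 RPKM (3.10, SE 0.47, adjusted p = 0.016). Ctsb, cathepsin B, rose from 403, 322 and 363 to 613, 559 and 507 RPKM (0.63, SE 0.15, adjusted p = 0.037). Each was higher in all 3 NICeCA libraries than in any Ctrl library.

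Ctss, cathepsin S of antigen-presenting cells, had the highest level of the list and a log2 difference of -0.09 (SE 0.34, adjusted p = 0.87). Lgmn (0.66, adjusted p = 0.083), Ctsz (0.35, adjusted p = 0.19) and Ctsc (0.34, adjusted p = 0.27), the last of which activates the serine proteases of neutrophil granules, also missed the threshold. The proteases did not follow the order of the stefin genes among the NICeCA libraries: 8 of 11 were highest in NICeCA replicate 1 and 9 of 11 lowest in NICeCA replicate 3, where all 9 stefin genes were highest. The count of 3 became 0 without NICeCA replicate 2, 1 without NICeCA replicate 1 and 5 without NICeCA replicate 3.

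Of 17 cystatin superfamily genes outside the cluster that were in the table, 3 were expressed enough to be tested. Cstb, which encodes stefin B, the widely expressed relative of the stefins A, rose from 116, 116 and 150 RPKM in Ctrl to 339, 365 and 288 RPKM in NICeCA TECs (log2 difference 1.37, SE 0.16, limma adjusted p = 0.0098), and the number of cystatins called higher, 1, became 0 without NICeCA replicate 2 and 2 without Ctrl replicate 3. Its level was above that of the whole stefin A cluster in each of the 6 libraries, per length. Cst3, which encodes the secreted cystatin C, was at 491 to 770 RPKM (0.31, SE 0.16, adjusted p = 0.21), and Cst7, which encodes cystatin F of immune cells, at 2.67 to 5.61 RPKM (0.36, SE 0.22, adjusted p = 0.27). Cst8, Cst11 and Cst13 had no read in any library. The remaining 11, Cst6 with the highest mean among them at 0.103 RPKM, did not reach a mean of 1 RPKM.

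Since neutrophils use stefin A genes, 28 neutrophil genes were followed, of which 27 were in the table and 22 were tested. Of these, 17 rose and 0 fell, with a median log2 difference of 1.56 against -0.05 over all tested genes. For 19 the NICeCA libraries were higher without overlap. Among all tested genes 5.88% were called higher and 16.5% were higher without overlap. S100a9 was at 34.4, 105 and 118 RPKM in Ctrl and 194, 307 and 742 RPKM in NICeCA TECs (log2 difference 2.21, SE 0.58, limma adjusted p = 0.045). S100a8, the partner of S100a9 in the calcium-binding protein calprotectin, was at 29.7, 65.3 and 93.9 against 196, 354 and 660 RPKM (2.64, SE 0.51, adjusted p = 0.026). Both rose, and for both NICeCA replicate 3 was the highest library, as it was for the stefin genes.

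Clec4d, a C-type lectin receptor (1.57, SE 0.19, adjusted p = 0.011), Retnlg, a secreted resistin-like protein (2.10, SE 0.30, adjusted p = 0.014), and Slpi, an inhibitor of neutrophil elastase (2.53, SE 0.37, adjusted p = 0.015), rose as well, each higher in 3 of 3 libraries. Camp, Elane, Ltf, Mpo and Prtn3, granule genes that neutrophils transcribe while they mature in bone marrow, were each under a mean of 1 RPKM, and none of the 27 was at 0 in all libraries. The count of 17 became 11 without Ctrl replicate 1, 9 without Ctrl replicate 2, 7 without NICeCA replicate 1, 2 without NICeCA replicate 2 and 11 without NICeCA replicate 3.

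Among the genes that did not pass were Hdc (0.73, adjusted p = 0.12), Csf3r, the receptor for G-CSF (0.51, adjusted p = 0.27), Padi4, which citrullinates histones (0.12, adjusted p = 0.64), and Ctsg, cathepsin G (1.05, adjusted p = 0.072).

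The summed level of the neutrophil genes was 295, 349 and 518 RPKM in Ctrl and 1101, 1484 and 2418 RPKM in NICeCA replicates 1, 2 and 3, so that the 6 libraries stood in the same order as for the summed stefin cluster. S100a8 and S100a9 made up 21.7% to 58.0% of this sum, and without them it was 231, 179 and 306 RPKM in Ctrl and 711, 823 and 1016 RPKM in NICeCA TECs, with Ctrl replicate 2 now the lowest. Of the 22 tested neutrophil genes, 17 were highest among NICeCA libraries in replicate 3 and 15 were lowest in replicate 1, and 18 were highest among Ctrl libraries in replicate 3. Mmp8, which encodes neutrophil collagenase, was at 1.28, 2.31 and 4.16 RPKM in Ctrl and 38.8, 45.9 and 71.1 RPKM in NICeCA TECs (log2 difference 3.92, SE 0.32, limma adjusted p = 0.0069). This was the largest log2 difference of the 22 tested neutrophil genes, whose median was 1.56. As a percent of the summed neutrophil genes, the cluster sum was 1.71%, 2.49% and 3.82% in Ctrl replicates 1, 2 and 3. It was 5.35%, 11.6% and 9.34% in NICeCA replicates 1, 2 and 3, values that the choice of the stefin genes affects. The part of neutrophil RNA in the stefin levels was not tested.

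**Figure D5:**
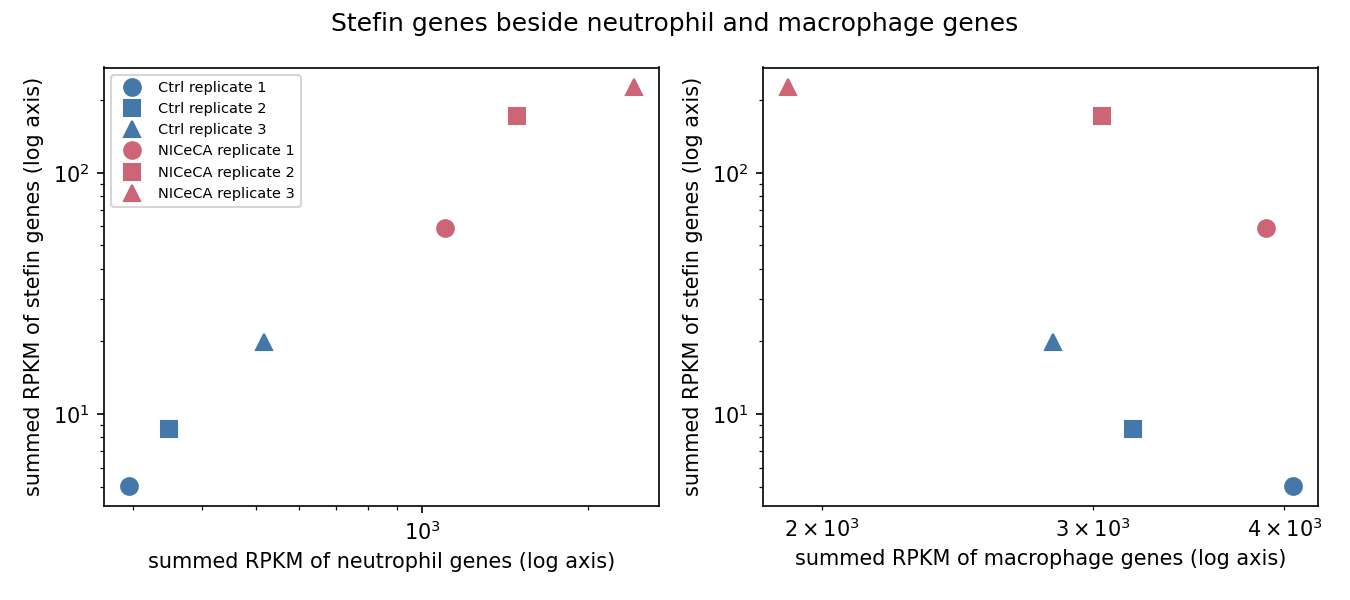
Summed RPKM of the 9 stefin genes (vertical axis, log) against the summed RPKM of neutrophil genes (left, log axis) and of macrophage genes (right, log axis), with 1 point per library, Ctrl in blue and NICeCA in red. The libraries stand in 1 order on both axes at left, from 295 to 2418 RPKM, while at right NICeCA replicate 3, the highest for stefin genes, is the lowest for macrophage genes at 1901 RPKM.

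Genes of other cell types that the beads could catch were followed as well, beside 5.88% called higher and 7.68% called lower over all tested genes. The macrophage sum was 4050, 3187 and 2829 RPKM in Ctrl and 3888, 3042 and 1901 RPKM in NICeCA replicates 1, 2 and 3, with 2 of 12 genes higher and 0 lower. All 12 macrophage genes were highest among NICeCA libraries in replicate 1, where the stefin genes were lowest. Of 14 keratinocyte genes in the table none was expressed enough to be tested, and they summed to 1.06 to 1.54 RPKM, below the cluster in every library. Platelet genes summed to 117 to 199 RPKM in Ctrl and 1177 to 1309 RPKM in NICeCA TECs, with 2 of 4 tested genes higher. These were the chemokine genes Pf4 (log2 difference 2.98, adjusted p = 0.0069) and Ppbp (4.17, adjusted p = 0.0083), and the other 8 platelet genes summed to 5.69 to 6.25 RPKM in Ctrl and 4.21 to 7.26 RPKM in NICeCA TECs.

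Of the 15 endothelial genes, 2 rose and 0 fell, with a median log2 difference of 0.66 (sums of 264 to 672 RPKM in Ctrl and 572 to 744 RPKM in NICeCA TECs). Among NICeCA libraries 14 of the 15 were lowest in replicate 1, as the stefin genes were, and 11 were highest in replicate 2. Among 9 tested eosinophil and mast cell genes and 9 tested lymphocyte genes none was called in either direction. The lymphocyte sum was 51.6, 40.03 and 63.1 RPKM in Ctrl and 34.2, 50.2 and 53.6 RPKM in NICeCA replicates 1, 2 and 3, so that replicate 1 was again the lowest of the NICeCA libraries. Of 7 tested fibroblast and pericyte genes 1 rose and 2 fell. The part of these cell types in the stefin levels was not tested.

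The genes whose log2 levels over the 6 libraries were most like the summed cluster were Cdkn2b (Pearson r = 0.997), Mettl9 (0.995), Mreg (0.994), Fam71f2 (0.992), Mir221 (0.992), Tst (0.990), A530064D06Rik (0.990), Raet1a (0.989), Raet1d (0.989) and Ubap1 (0.989). Cdkn2b, which encodes a cyclin-dependent kinase inhibitor, was at 0.515, 0.667 and 1.07 RPKM in Ctrl and 1.63, 2.14 and 2.41 RPKM in NICeCA replicates 1, 2 and 3. Mettl9, a histidine methyltransferase gene, was at 11.1, 11.9 and 14.0 against 16.6, 19.2 and 19.3 RPKM, a far smaller step than that of the stefin genes. Raet1a and Raet1d, near copies that encode ligands of the receptor NKG2D, were at 1.39 to 2.51 and 1.67 to 3.73 RPKM in Ctrl and at 4.89 to 7.25 and 6.27 to 8.79 RPKM in NICeCA TECs, and could themselves share reads. None of the 10 was in the neutrophil list, but with 22 of its genes among the 12316 compared, nothing is read from this. These values of r describe 6 points that fall into 2 groups, and 148 of 12316 genes had an r above 0.95.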

How the data were processed

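Bulk RNA-seq of CD31-bead-captured cells from 3 Ctrl and 3 NICeCA mice was analysed. The authors deposited RPKM values for each library in 1 table, from paired reads of rRNA-depleted RNA aligned with TopHat2. The submitters' notes name mm9, but the positions are those of GRCm38: 12287 of 23473 RefSeq models share a start with GRCm38.p6, the 9 stefin genes included. For the counting tool, strand and multiply aligned reads nothing is stated in the study's methods or labels. Columns of the table other than RPKM, position and length were not used.

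RefSeq models with a mean of at least 1 RPKM (n = 12320) were tested on log2(RPKM + 1), which understates changes of low genes, with limma 3.58.1 (trend, R 4.3.3, two-sided, Benjamini-Hochberg over all of them, adjusted p under 0.05), and the procedure was tested on simulated data. Reads were worked back as RPKM times length. Intervals for pooled ratios are exact at 95%. The floor was 3 reads. Replicates of a group differed by more than sampling noise (chi-square per degree of freedom 51.2 to 138). Coding sequences came from GENCODE M21 transcripts paired with the RefSeq mRNAs, and promoters from RefSeq. Python 3.11.15 and Biopython 1.88 were used for sequences.

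The stefin genes and the gene lists were chosen with earlier results of these data known. Named genes were the 9 stefin genes, the 10 genes most like their sum, the called and up to 4 other highest genes among neighbours, cathepsins and cystatins, the 5 highest neutrophil genes, Pecam1, Cdh5, Notch1, Hey1 and Nrarp. Hes1, Mmp8, Pf4, Ppbp, Csta, Gm6815, the cystatins without reads, the low granule genes and the neutrophil genes named as not passing were named after their values were seen. Alternatives were quantile and trimmed-mean scaling, no filter or a mean of 5 RPKM, a pseudocount of 0.1, no trend, a replicate block, voom on recovered reads, FANTOM3 models, and each library left out.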

Additional observations from a re-analysis of the deposited data

Results flagged for a closer look

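A FANTOM3 cDNA model outside the RefSeq comparison lay over Gm5483, on chromosome 16 from 36184212 to 36188108 on the plus strand, with a length of 1859 bases against 413 for the RefSeq model. It was singled out because the main comparison did not use its row. Since it begins at the same base as Gm5483 and ends within that gene, the same reads may be counted on both. Its levels are therefore no separate support for those of Gm5483, which was picked from this contrast. Its lowest NICeCA level was 8.814 RPKM, and its levels were 0.771, 1.32 and 3.31 RPKM in Ctrl and 8.81, 27.8 and 34.3 RPKM in NICeCA replicates 1, 2 and 3. In reads this was 56, 98 and 240 in Ctrl and 598, 1826 and 2374 in NICeCA TECs, above the 39, 65 and 161 and the 429, 1363 and 1667 reads on the RefSeq model of Gm5483 in the same libraries. The groups did not overlap. How much of this was unspliced RNA was not tested.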

How the results depend on the processing

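Leaving out a library cannot create overlap, and settings other than the scalings do not change the order of the RPKM values, so the 8 stefin genes without overlap say nothing about stability. The median log2 difference over Gm5483, Stfa2l1, 2010005H15Rik and Stfa1 (3.23) became 4.00 with a pseudocount of 0.1 and 4.06 with voom on recovered reads. It ran from 2.87 to 3.76 with 1 library left out. Without NICeCA replicate 3, Stfa1 fell below the filter and was not in this median. Other stefin genes that passed the filter in some settings were not taken in. Stefin genes past the threshold (4) numbered 0 to 5 with 1 library left out, the 0 being without NICeCA replicate 2. Genes called higher (725) and lower (946) became 446 and 325 with quantile normalization, and 260 and 105 without a filter. With a mean of at least 5 RPKM 579 were lower. With 1 library left out they ran from 17 to 911 and from 1 to 832. Neighbours called higher (1) and lower (1) became 0 and 0 without a filter, and the 1 called lower became 0 with quantile normalization. With 1 library left out they ran from 0 to 3 and from 0 to 1. Cathepsins called higher ran from 0 to 5, cystatins from 0 to 2 and neutrophil genes from 2 to 17 with 1 library left out. Without a filter 10 neutrophil genes rose. The cause of these shifts was not tested. Log2 differences in the other settings were compared only for Gm5483, Stfa2l1, 2010005H15Rik and Stfa1 and for their median. All stayed positive, which the choice of these genes had largely fixed. For the other gene lists and for all tested genes only numbers of calls were compared, so the directions of their genes were not checked. Of the values in other settings 208 moved little, counts by at most 1.5 times and differences by less than 1 SD, and 45 moved more. Some of the 208 could hardly move, so their number is no measure of stability. Among them were the counts without overlap, and log2 differences where only the filter, the trend, the block or the FANTOM3 models changed.

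The methods speak of pairs of mice, but nothing ties the replicate numbers to those pairs, and same-numbered libraries did not all deviate together: the correlations of their deviations were 0.12, -0.34 and -0.18. With the replicate block 327 genes were higher and 209 lower, and 0 neighbours were lower. With few reads on 6 of the 9 genes, depth limits what can be said of them, and of BC117090 most.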
